A study of Arabidopsis thaliana with 6 samples.

Results

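The hormone genes GH3.3, WES1, GID1A and SLY1 were followed in Arabidopsis thaliana seedlings. GH3.3 and WES1 act in auxin conjugation, and GID1A and SLY1 in gibberellin perception. They were chosen by name, since pkl mutants resemble mutants with a weak gibberellin response, and with earlier results of these data known. Each had 1 probe set that the array's annotation pairs with that gene alone. They are 4 of 13286 genes measured in this way, by 13436 probe sets with a locus in the TAIR10.1 gene table. Whole seedlings, either pkl-1 mutant or wild type (Col-0), grew on Murashige and Skoog plates in constant light until harvest at 14 days, with 3 Affymetrix arrays of each genotype. The pkl-1 allele lies in PICKLE (PKL), a gene for a CHD3-type chromatin remodeller; the labels name no transgene, and no treatment beyond sterilisation of the seeds. The labels call the 3 arrays of a genotype biological replicates.

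GH3 enzymes join amino acids to plant acids, and GH3.3 and WES1 (also GH3.5) take indole-3-acetic acid, the main auxin, as a substrate; GH3 genes of this group are themselves induced by auxin, so that they form a feedback on its level. Gibberellins bind the soluble GID1 receptors. The occupied receptor binds DELLA proteins, which restrain growth, and SLY1, the F-box subunit of a ubiquitin ligase, then marks the DELLA protein for degradation.

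In pkl-1, 0 of the 4 genes passed the test over all probe sets (limma, Benjamini-Hochberg adjusted p under 0.05), against 2.37% of the 22746 probe sets tested (1.06% called higher). All 4 log2 changes, pkl-1 minus wild type, were positive, from 0.13 for SLY1 to 0.55 for GID1A, as were those of 52.5% of all probe sets; that of WES1 was 0.0013 without wild type replicate 1. At an unadjusted p under 0.05 the count was 2, GH3.3 and GID1A, against 14.9% of all probe sets. For the same 2 genes every pkl-1 array lay above every wild-type array, which held in that direction for 10.6% of all probe sets and in either direction for 21.0%. The receptor's relatives GID1B and GID1C did not pass either. Of the 5 measured GH3 genes 1 passed: GH3.17, which joins auxin to glutamate, fell in pkl-1. Its call was lost when any single array was left out. Of all probe sets, 1.31% were called lower.

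Array medians lay between 5.03 and 5.13 on the log2 scale of the signal, and arrays of 1 genotype correlated across probe sets at 0.985 to 0.9937, those of different genotypes at 0.9751 to 0.9892. The probe set of PKL is unnamed here, so that the mutated gene was not used to check the labels. Of the listed tissue markers, 4 of 22 of leaf and shoot and 3 of 17 of root were measured. For flower this was 1 of 9, and for seed 2 of 18. RCA, which encodes Rubisco activase of leaves, had a mean of 13.2 in both genotypes. PYK10, a beta-glucosidase of roots, had means of 11.96 (pkl-1) and 11.95 (wild type). The floral marker SPL and the seed markers OLEO3 and M10 were dim, with genotype means between 1.58 and 2.21. M10 was at a log2 change of 0.29 ± 0.12 (SE), with every pkl-1 array above every wild-type array. The gap between them was only 0.015, and 10.6% of all probe sets had all pkl-1 arrays above. OLEO3 was at 0.12 ± 0.21, and its arrays overlapped. Neither seed marker passed. The summed signal of the 4 measured leaf and shoot markers is given as log2. It ran from 13.76 to 13.87 in pkl-1 and from 13.95 to 14.05 in wild type. Of the 4 markers 1 passed the test, the antenna gene LHCB4.2, against 2.37% of all probe sets (1.31% called lower). Its log2 change was -0.50 ± 0.09 (SE), with a limma adjusted p of 0.0355. Without pkl-1 replicate 2 or without any 1 wild-type array its call was lost (adjusted p up to 0.122), as it was without a trend (0.111). The summed signal of the 3 root markers ran from 11.88 to 12.10 in pkl-1 and from 11.79 to 12.06 in wild type, and 0 of the 3 passed. This sum is carried by PYK10, at 0.02 ± 0.09 (SE). The much dimmer root markers EXPA7 and EXPA18 were at -0.33 ± 0.28 and -0.17 ± 0.25. The leaf and shoot sum is carried by the bright probe sets of RCA and LHCB4.2, and the leaf and shoot markers did not fall together. RCA was at -0.03 ± 0.06 (SE). The leaf polarity gene YAB3 was at 0.50 ± 0.15, with every pkl-1 array above every wild-type array. TRY, a repressor of leaf hair formation, was at -1.48 ± 0.47, with every pkl-1 array below, as for 10.4% of all probe sets. Its wild-type arrays were widely spread, at 4.80, 3.67 and 2.66, and the highest pkl-1 array was at 2.36. RCA, YAB3 and TRY did not pass. The part of these marker differences in the values below was not tested, and in whole seedlings fewer cells of a type and less RNA per cell cannot be told apart.

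GH3.3 (AT2G23170) had log2 signals of 7.61, 7.83 and 7.85 on the pkl-1 arrays and of 7.37, 7.47 and 7.38 on the wild-type arrays. The 3 pkl-1 arrays were all higher, with a gap of 0.15 between the lowest of them and the highest wild-type array. The pkl-1 mean was 7.77 ± 0.13 and the wild-type mean 7.40 ± 0.06 (SD, n = 3 each). The log2 change was 0.36 ± 0.12 (SE), which is 1.29-fold, with a 95% interval of 0.09 to 0.64 that is not adjusted for the number of probe sets. The limma adjusted p was 0.201, so that GH3.3 did not pass. Of all probe sets, 18.5% had a larger change in either direction.

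WES1 (AT4G27260) encodes a GH3 enzyme that also conjugates salicylic acid. Its log2 signals were 6.78, 7.22 and 7.10 in pkl-1 and 5.74, 7.25 and 6.82 in wild type. The genotypes overlapped: wild type replicate 2 was the highest of the 6 arrays, and wild type replicate 1 stood far below the rest. Within pkl-1, too, replicate 1 was the lowest and replicate 2 the highest, over a smaller range. The pkl-1 mean was 7.04 ± 0.22 and the wild-type mean 6.60 ± 0.78 (SD, n = 3 each), and 97.7% of probe sets had a smaller SD in wild type. The log2 change of 0.43 ± 0.36 (SE; 95% interval -0.39 to 1.26; limma adjusted p = 0.644) rested on that array, since without wild type replicate 1 it was 0.0013. On the same array the 3' minus 5' signal of the GAPDH control, a measure of how intact the RNA was, was the highest of the 6, at 1.47 against 1.29 to 1.39, while those of actin and ubiquitin lay within the range of the others. The part of this in the WES1 value was not tested.

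**Figure D1:**
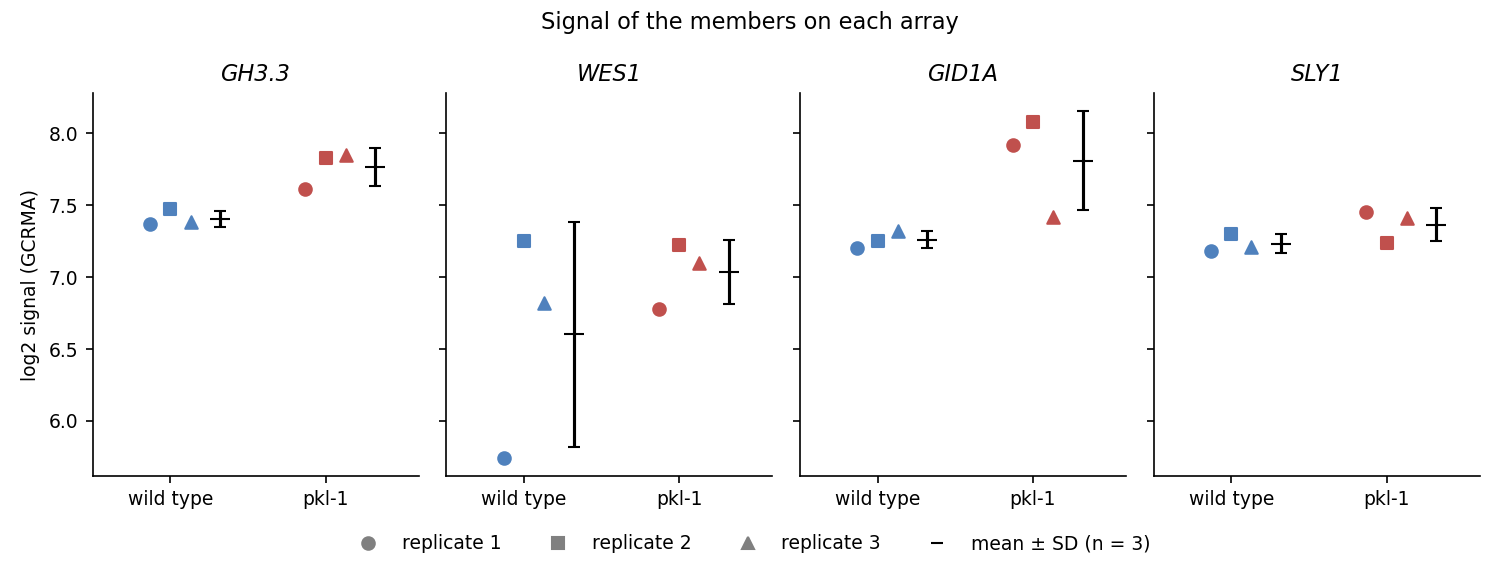
GCRMA log2 signal (vertical axis, shared) of GH3.3, WES1, GID1A and SLY1 on each of 3 wild-type (blue) and 3 pkl-1 (red) arrays, with the marker showing the replicate number and black bars the mean ± SD. The pkl-1 arrays lie above the wild-type arrays for GH3.3 and GID1A and overlap them for WES1 and SLY1; wild type replicate 1 is low for WES1, at 5.74, and pkl-1 replicate 3 is close to wild type for GID1A, at 7.42.

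GID1A (AT3G05120) is 1 of the 3 gibberellin receptor genes of Arabidopsis. Its log2 signals were 7.92, 8.08 and 7.42 in pkl-1 and 7.20, 7.25 and 7.32 in wild type. The wild-type arrays were tight. The pkl-1 arrays were spread: replicates 1 and 2 were clearly higher, while replicate 3 was only 0.10 above the highest wild-type array. The pkl-1 mean was 7.81 ± 0.35 and the wild-type mean 7.26 ± 0.06 (SD, n = 3 each), and the SD in pkl-1 was larger than that of 85.9% of probe sets. GID1A had the largest change of the 4, 0.55 ± 0.18 (SE), which is 1.46-fold, with an unadjusted 95% interval of 0.14 to 0.96. It did not pass (limma adjusted p = 0.194), and 9.30% of probe sets had a larger change. Without pkl-1 replicate 3 the log2 change was 0.74 and the adjusted p 0.0675, the nearest it came to the threshold with an array left out.

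SLY1 (AT4G24210) gave log2 signals of 7.45, 7.24 and 7.41 in pkl-1 and 7.18, 7.30 and 7.21 in wild type. Replicates 1 and 3 of pkl-1 were above all wild-type arrays, while pkl-1 replicate 2 lay inside the wild-type range. Its log2 change was 0.13 ± 0.12 (SE; limma adjusted p = 0.684), smaller than that of 54.0% of all probe sets. The 95% interval, -0.15 to 0.41, reaches from 0.903-fold to 1.33-fold, so that SLY1 is not shown to be equal in both genotypes.

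In the GH3 family 1 gene fell, while GH3.3 and WES1 had positive changes that did not pass. Of 11 listed genes 5 were measured by a probe set of their own, with 0 higher, 1 lower and 4 not passing. The share of all probe sets called lower was 1.31%. GH3.17 (AT1G28130) had log2 signals of 6.25, 6.43 and 6.29 in pkl-1 and of 6.94, 7.24 and 7.04 in wild type. All 3 pkl-1 arrays were lower and the genotypes were well apart. It fell by 0.76 ± 0.14 on the log2 scale (SE), so that the wild type had 1.69 times its signal (limma adjusted p = 0.0399). The call was lost when any 1 of the 6 arrays was left out, with adjusted p from 0.0620 to 0.137, while the log2 change stayed between -0.82 and -0.67.

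GH3.1 and GH3.9 were dim. GH3.1, a GH3 gene of the auxin-conjugating group, had a pkl-1 mean of 1.59 and a wild-type mean of 1.63, inside the dimmest 25% of probe sets, which end at 2.14. GCRMA packs dim probe sets together, but the pkl-1 arrays of GH3.1 were spread. They were at 1.63, 1.89 and 1.25, against 1.59, 1.57 and 1.73 in wild type. For GH3.9 the pkl-1 mean was 2.34 ± 0.28 and the wild-type mean 2.65 ± 0.20 (SD, n = 3 each), a log2 change of -0.31 ± 0.19 (SE; limma adjusted p = 0.504). The median change of the 5 genes was -0.04, against 0.01 over all probe sets.

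The changes of GH3.3 and GH3.17 were 1.12 log2 units apart; this pair was picked for its opposite signs, so that the value is a description without a test. The changes of 3 other pairs were compared by an exact 2-sided permutation test of the difference between the log2 signals on each array, for which 3 arrays against 3 allow no p below 0.1. GH3.3 and WES1 differed in their changes by -0.07 (exact permutation p = 1, adjusted over the 3 pairs 1). For GID1A and SLY1 the changes differed by 0.42 (exact permutation p = 0.3, adjusted 0.9), and for GID1A and GID1B by 0.31 (exact permutation p = 0.7, adjusted 1). The difference between GID1A and SLY1 was 0.84 at most in pkl-1 and 0.01 at least, against -0.05 to 0.11 in wild type, so that these genotypes overlapped too. All of these pairs were chosen with the values known.

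**Figure D2:**
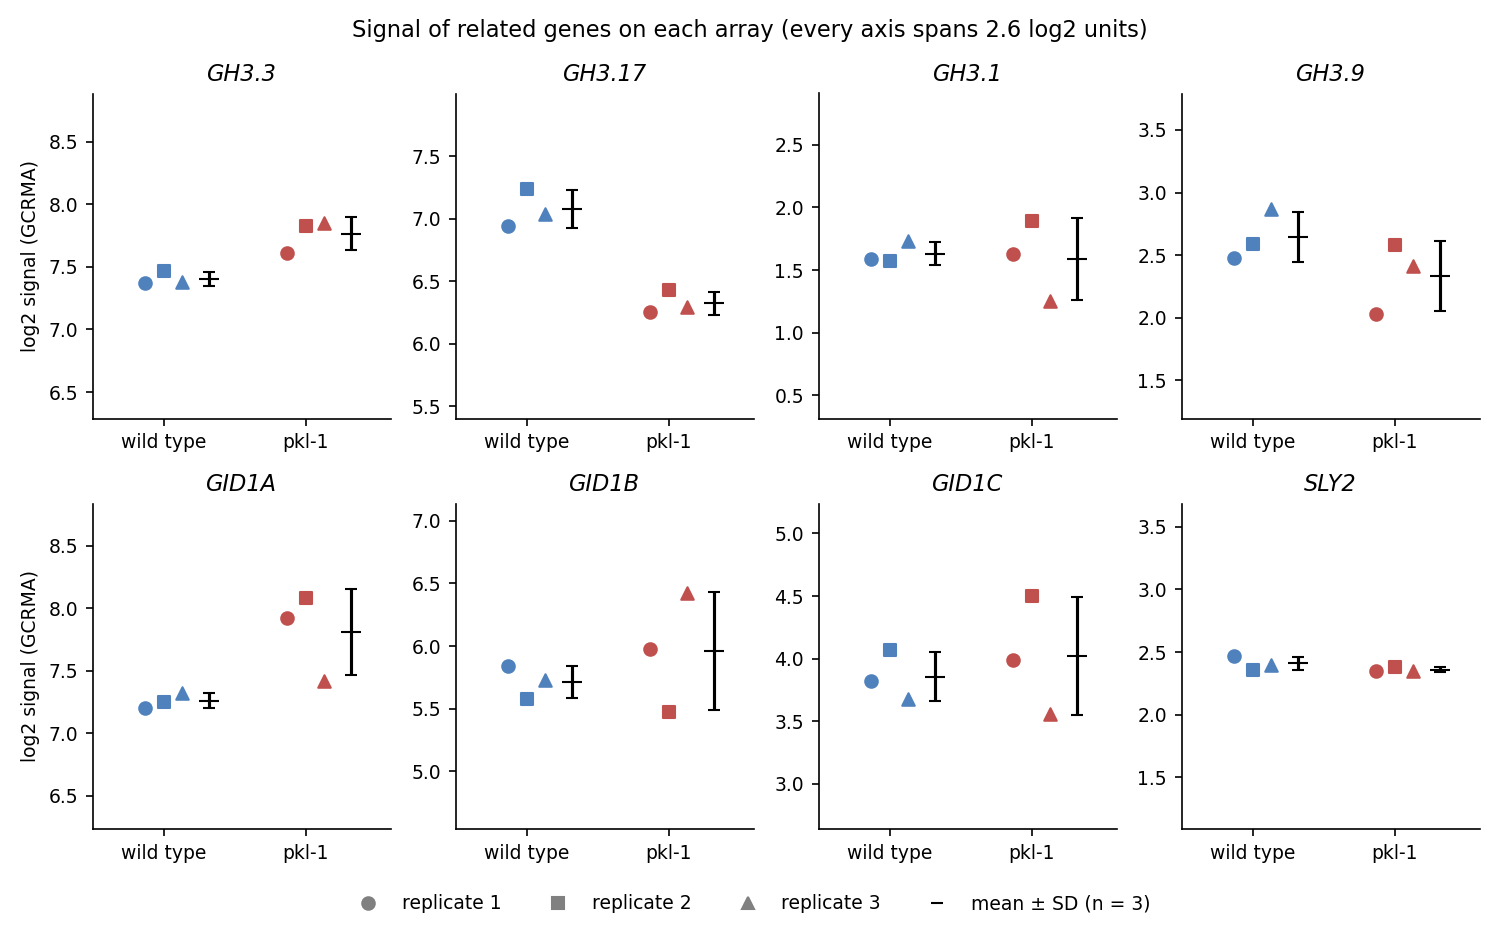
GCRMA log2 signal of 4 GH3 genes (top) and of the 3 gibberellin receptor genes and SLY2 (bottom) on each array; colours, markers and bars as in the plot of the 4 genes, and every vertical axis has the same span. GH3.17 is lower on all pkl-1 arrays, from 6.25 to 6.43, while GID1B and GID1C are spread in pkl-1 and overlap the wild type.

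Of 19 listed genes of gibberellin perception and signalling 7 were measured, and 0 passed, against 2.37% of all probe sets. At an unadjusted p under 0.05 the count was 1 of 7, GID1A, which is close to the 14.9% of all probe sets. Changes were positive for 6 of the 7, against 52.5% of all probe sets, with a median of 0.16 against 0.01. GID1B had log2 signals of 5.98, 5.47 and 6.42 in pkl-1 and 5.84, 5.58 and 5.73 in wild type, and those of GID1C were 3.99, 4.50 and 3.56 in pkl-1 and 3.82, 4.07 and 3.68 in wild type. In pkl-1 the 3 receptor genes did not follow the same arrays: replicate 3 was the lowest for GID1A and GID1C and the highest for GID1B. The log2 changes were 0.24 ± 0.25 (SE) for GID1B and 0.16 ± 0.26 for GID1C. The sign for GID1C was not stable, at -0.08 without pkl-1 replicate 2.

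SLY2, the F-box gene most like SLY1, was dim in both genotypes, with a pkl-1 mean of 2.36 ± 0.02 and a wild-type mean of 2.41 ± 0.05 (SD, n = 3 each). SPY and SEC encode sugar transferases that modify DELLA proteins. Their log2 changes were 0.13 ± 0.14 and 0.17 ± 0.14 (SE; limma adjusted p = 0.736 and 0.655). No gene of the lists for gibberellin synthesis and inactivation (23 genes) and for gibberellin-responsive GASA peptides (7 genes) had a probe set paired with it alone, so that neither is described here.

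**Figure D3:**
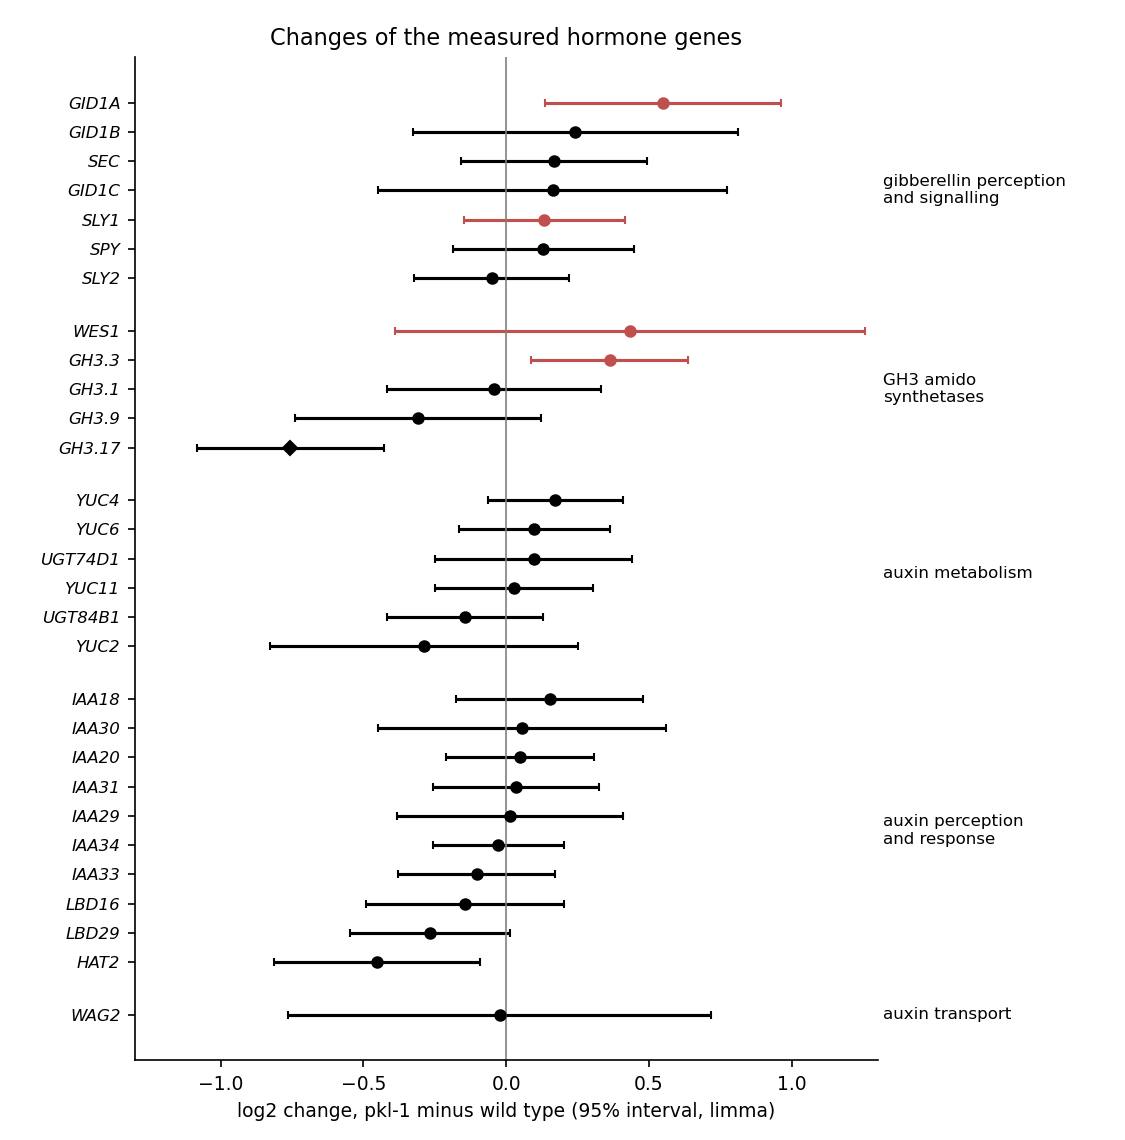
Log2 change, pkl-1 minus wild type, with its unadjusted 95% interval (limma) for the 29 measured genes of the gibberellin and auxin lists; red marks GH3.3, WES1, GID1A and SLY1, and the diamond marks GH3.17, the 1 gene that passed the adjusted threshold. GID1A and GH3.3 have intervals above 0, that of WES1 is the widest, and HAT2 and GH3.17 have intervals below 0.

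Of the wider auxin lists, 6 of 32 genes of synthesis and inactivation, 10 of 75 of perception and response and 1 of 27 of transport were measured. Of these 17 genes 0 passed, against 2.37% of all probe sets, and at an unadjusted p under 0.05 the count was 1, HAT2, a smaller share than the 14.9% of all probe sets. This gene encodes an auxin-induced homeodomain factor. Its log2 signals were 6.52, 6.82 and 6.44 in pkl-1 and 7.09, 7.16 and 6.88 in wild type, so that every pkl-1 array was below every wild-type array. The log2 change was -0.45 ± 0.16 (SE; limma adjusted p = 0.221). Of all probe sets, 10.4% had this pattern of lower arrays.

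The median log2 change was 0.06 over the 6 measured genes of auxin synthesis and inactivation and -0.01 over the 10 of perception and response. In the first list, the flavin monooxygenase genes YUC4 and YUC6, of the main route of auxin synthesis, were at 0.17 ± 0.10 and 0.10 ± 0.11 log2 units (SE), and YUC2, of the same family, at -0.29 ± 0.23. UGT84B1, a glucosyltransferase that acts on auxin, was at -0.14 ± 0.12. In the second list, the Aux/IAA repressor genes IAA18 and IAA30 were at 0.15 ± 0.14 and 0.06 ± 0.22, and LBD29, a regulator of lateral root formation, at -0.27 ± 0.12. WAG2, a kinase gene of auxin transport, was at -0.02 ± 0.32. Of these, 4 of the 6 and 7 of the 10 lay in the dimmest 25% of probe sets, so that the auxin lists were read mostly from genes with little signal. IAA30 and WAG2 changed sign when single arrays were left out.

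Leaving out each array in turn moved the changes of the 4 genes by unlike amounts. GH3.3 stayed between 0.32 and 0.44, GID1A between 0.41 and 0.74, SLY1 between 0.09 and 0.20, and WES1 between 0.0013 and 0.76. All of these values were positive, and none passed (limma adjusted p of at least 0.0675). In log2 units, without regard to the size of the change, the range was narrowest for SLY1 and GH3.3. SLY1 also had the smallest change of the 4, at 0.13 with all arrays. The range was widest for WES1, where wild type replicates 1 and 2 set the ends. GID1A owed its ends to pkl-1 replicates 2 and 3.

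**Figure D4:**
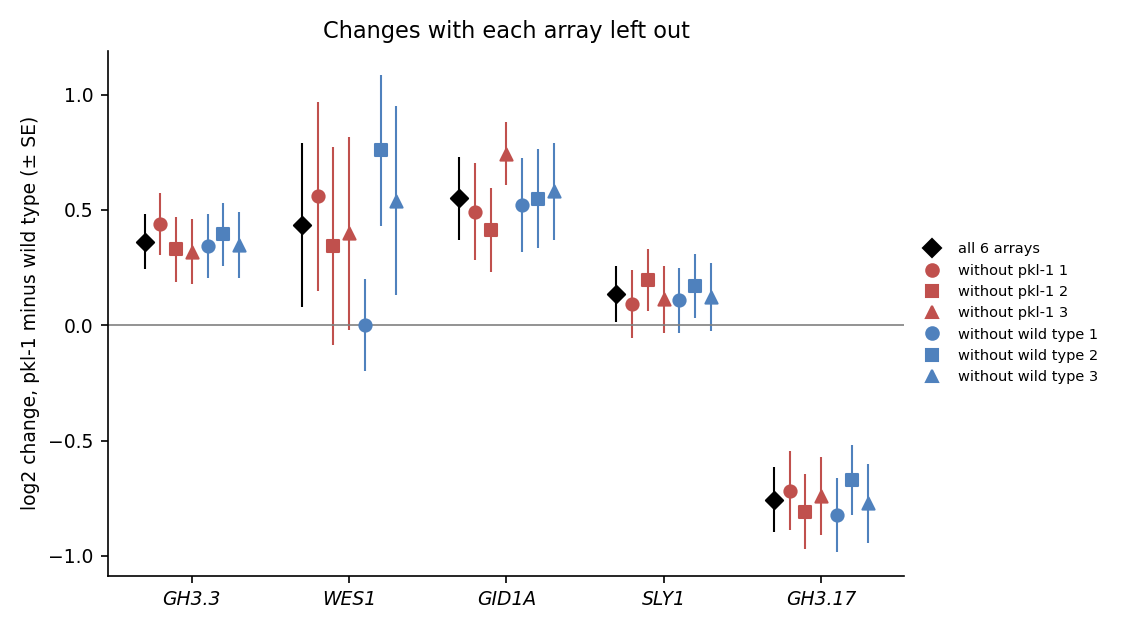
Log2 change, pkl-1 minus wild type, ± SE (limma) for GH3.3, WES1, GID1A, SLY1 and GH3.17 with all 6 arrays (black) and with each pkl-1 (red) or wild-type (blue) array left out. WES1 drops to 0.0013 without wild type replicate 1, GID1A is highest without pkl-1 replicate 3, at 0.74, and GH3.17 stays between -0.82 and -0.67.

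Across the 6 arrays the 4 genes were only loosely alike, with Pearson correlations of their log2 signals from 0.34 for GID1A and SLY1 to 0.65 for GH3.3 and GID1A. The genes most like each were taken from probe sets with 1 gene, a mean above the median of all probe sets and an SD over the 6 arrays of at least 0.5 times its own. With GH3.3 these were AT5G41770 (r = 0.986), AT1G19430 (0.980) and AT1G80290 (0.972). With GID1A they were AT4G17940 (r = 0.988), AT1G71170 (0.986) and AT5G04910 (0.979). AT4G17940 had log2 signals of 8.44, 8.67 and 8.02 in pkl-1 and 7.70, 7.69 and 7.72 in wild type, with the same low pkl-1 replicate 3 as GID1A.

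The genes most like WES1 were SK18, which encodes a SKP1-like protein (r = 0.980), AT3G49790 (0.973) and AT1G01770 (0.967). They had the same low array: wild type replicate 1 was at 5.38 for SK18 against 6.10 to 6.55 elsewhere, and at 5.33 for AT3G49790 against 7.09 to 7.70. Within pkl-1, too, replicate 1 was the lowest and replicate 2 the highest for each of these genes, as for WES1. They were picked for their likeness to WES1, so that the shared order is no separate result. With SLY1 the genes were AT1G17145 (r = 0.981), AT3G07660 (0.979) and ALDH10A9, an aldehyde dehydrogenase gene (0.975). The 3 genes named for each are the top of many candidates, and an r above 0.9 is not particular to them. It was reached by 89 of 5012 candidate probe sets with GH3.3 and by 33 of 1806 with WES1. With GID1A 53 of 3266 reached it, and with SLY1 41 of 5810. These likenesses are descriptions over 6 arrays of 2 genotypes.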

How the data were processed

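For each probe set the authors deposited a log2 signal produced by GCRMA, per the submitters' processing notes; its version and the array's genome build are not stated there, and the log2 scale was read from the values (0.597 to 13.7). GCRMA corrects background by probe sequence, which packs dim probe sets together and makes their folds uncertain. Of 22810 probe sets, 64 controls were left out. Of the other 22746, 13513 paired with 1 gene, 503 with several and 8730 were unnamed here; symbols follow the TAIR10.1 gene table. No further normalization or filter was applied.

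The test between genotypes was that of limma 3.58.1 under R 4.3.3 (lmFit, eBayes with a trend, 2-sided), with Benjamini-Hochberg adjustment over all 22746 probe sets and a threshold of 0.05; the script was tested on simulated data. Pairs of genes were compared by exact permutation (scipy 1.17.1). Arrays have no read depth, and 3 a genotype limit the precision (median SE 0.156 log2 units).

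The 4 genes and the gene lists (227 names in 7 hormone lists) were chosen with earlier results of these data known. Named by rule were the 4 genes, all measured members of the gibberellin and GH3 lists, of other hormone lists any changed member and the 2 largest positive and 2 largest negative changes, and per gene the 3 most alike. PKL, the first named by rule, is unnamed here. Marker genes are named to check the tissue. Promoter and protein sequences, also planned, were not used here. The plots come from matplotlib 3.10.9 (Python 3.11.15).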

Additional observations from a re-analysis of the deposited data

How the results depend on the processing

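The 4 genes and the other hormone genes named by rule were refitted without a trend, with a robust prior, without the dimmest 25% of probe sets, after quantile normalization, after centring on medians, with array weights, with a block for replicate number and without each array. In all 13 alternatives GH3.3, WES1, GID1A and SLY1 kept a positive change and did not pass, with limma adjusted p of 0.103 to 0.464 for GH3.3, 0.290 to 0.999 for WES1, 0.0675 to 0.476 for GID1A and 0.610 to 0.834 for SLY1. No gene had a further probe set, so that this alternative was not run. The changed probe sets, 540 with all arrays, numbered 123 to 303 with 1 array left out. The GH3 list had 0 changed genes without any 1 array, and 1 in all other alternatives; GH3.17 had limma adjusted p of 0.0131 to 0.0357 in the latter. Fewer arrays lower the power. Among these named genes sign changes came without single arrays, in genes that had not passed: GID1C (-0.079 to 0.39), GH3.1 (-0.19 to 0.13, among them 0.0081), IAA30 (-0.15 to 0.22, among them -0.05) and WAG2 (-0.37 to 0.19, among them 0.037, 0.14 and 0.12).

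The block for replicate number raised the changed probe sets to 1518; GH3.3 and GID1A had limma adjusted p of 0.103 and 0.0878, and GH3.17 0.0131. For WES1 the SE was 0.20 with the block against 0.36 without it, and the limma adjusted p with it was 0.290. Deviations from the genotype means correlated at 0.49, -0.02 and 0.58 for replicates 1, 2 and 3. Replicates 1 and 3 of pkl-1 correlated best with the same number in wild type, and replicate 2 with another. The labels do not state that equal numbers share a batch, so that the main fit used no block. Whether the numbers pair the arrays is not settled here.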
